A study of Mus musculus with 8 samples.

Results

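The dectin and DCIR genes encode C-type lectin receptors, and 9 of them were chosen by symbol from the clusters of such genes on mouse chromosome 6. Of these 9, 8 had a row among the 22597 genes of the count table, namely Clec4n, Clec4d, Clec4e, Clec4a1, Clec4a2, Clec4a3, Clec4b1 and Clec12a. Clec7a, which encodes dectin-1, was not analysed here. The 8 measured genes all passed the filter on low counts. The libraries were made from RNA of macrophages sorted from lung as interstitial macrophages, 4 for each of 2 genotypes of donor marrow. The comparison asks how these receptors differ when the macrophages that refill an emptied niche carry a deletion in Tgfbr2, which encodes a receptor of TGF-β.

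C-type lectin receptors carry an extracellular lectin domain, with which many of them bind sugars or lipids of fungi, mycobacteria and damaged cells. The activating Clec4 members have no signalling tail of their own and pair with the adaptor Fcer1g, which recruits the kinase Syk and, further on, the adaptor Card9 and NF-κB. The inhibitory members carry an ITIM motif in their tail, which binds phosphatases such as Ptpn6. Dendritic cells, monocytes, macrophages and neutrophils all express receptors of this family, so none of these genes marks lung interstitial macrophages by itself.

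All recipients were irradiated CD45.1/CD45.2 IMDTR mice, which express the diphtheria toxin receptor from Cx3cr1 and whose thorax was shielded. The WT group received marrow of Tgfbr2fl/fl donors and the Tgfbr2_KO group marrow of Lyz2Cre Tgfbr2fl/fl donors, so that the floxed allele is shared and Cre is not. What Cre itself does therefore cannot be told apart from what the deletion does. At 1 month after the transplant, 50 ng of diphtheria toxin was injected, and cells were sorted 10 days later. Mice were female and of the C57BL/6 strain, with an age given as 12 to 16 weeks in the sample labels and as 18 weeks in the protocol. Lyz2Cre acts in neutrophils, monocytes and macrophages alike, and shielding leaves host cells in the lung. The labels do not say that the libraries came from separate mice, so p-values here measure the spread between libraries, and that spread may be technical.

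Library totals were between 15597300 and 37654100 counts. The libraries WT 1, WT 2 and KO 1 held more lung RNA than the other 5, with 3215 to 5757 CPM (counts scaled to a common library total) summed over 11 epithelial markers against 167 to 259. These 3 libraries are called lung-rich here; the split was made from the data and is no group of the study. Summed CPM of 13 interstitial macrophage markers were 16736, 18771 and 10909 in WT 1, WT 2 and KO 1, and 23896 to 28106 in the other 5. Tgfbr2 itself was at 474 to 548 CPM in WT and 424 to 576 CPM in KO. Gene counts do not show which part of a transcript was read, so this total is no test of the deletion.

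Promoters of 4 members are shown first, 2 from each side of the cluster, because the values below set the DCIR side of the cluster against the dectin-2 side. Each is 280 bases of the RefSeq GRCm38.p6 sequence read 5′ to 3′ on the strand of the gene, from 250 bases before the annotated start site to 30 bases after it. Capitals mark GAGGAA or its reverse complement TTCCTC, a purine-rich motif of the kind that the myeloid factor PU.1 can bind. Clec4b1 (chr6:123049712-123049991, plus strand) and Clec4a1 (chr6:122921598-122921877, plus strand) lie on the DCIR side, Clec4d (chr6:123261857-123262136, plus strand) and Clec4e (chr6:123289842-123290121, minus strand) on the dectin-2 side.
Clec4b1: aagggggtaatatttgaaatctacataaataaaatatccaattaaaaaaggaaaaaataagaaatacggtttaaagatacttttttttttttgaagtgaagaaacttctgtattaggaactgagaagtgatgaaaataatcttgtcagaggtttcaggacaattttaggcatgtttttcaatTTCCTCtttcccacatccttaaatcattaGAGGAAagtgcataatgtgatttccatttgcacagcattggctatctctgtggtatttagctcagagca
Clec4a1: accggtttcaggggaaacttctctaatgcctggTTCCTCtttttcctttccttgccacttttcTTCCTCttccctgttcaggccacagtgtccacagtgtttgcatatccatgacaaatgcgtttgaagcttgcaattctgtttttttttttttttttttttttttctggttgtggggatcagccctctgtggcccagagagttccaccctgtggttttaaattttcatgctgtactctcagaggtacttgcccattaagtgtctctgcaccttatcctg
Clec4d: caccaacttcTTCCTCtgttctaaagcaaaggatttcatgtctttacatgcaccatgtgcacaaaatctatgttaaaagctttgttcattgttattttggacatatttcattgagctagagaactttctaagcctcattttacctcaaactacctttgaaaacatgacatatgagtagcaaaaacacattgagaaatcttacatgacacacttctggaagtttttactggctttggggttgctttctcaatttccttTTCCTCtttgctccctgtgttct
Clec4e: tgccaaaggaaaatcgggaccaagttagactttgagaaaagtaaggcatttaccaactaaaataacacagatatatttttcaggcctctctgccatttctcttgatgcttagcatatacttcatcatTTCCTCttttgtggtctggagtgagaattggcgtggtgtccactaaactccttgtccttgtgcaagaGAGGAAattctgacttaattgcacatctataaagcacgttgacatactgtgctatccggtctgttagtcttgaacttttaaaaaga

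RefSeq promoters were matched for 7 of the 8 measured members, with 2 start sites for Clec4a3 and thus 8 promoters, and Clec4n had no entry. On either strand and within the 300 bases searched, 6 of the 8 promoters held GAGGAA, against 28.3% of 32851 promoters of the same length. The longer AGAGGAA, which always overlaps GAGGAA, was in the same 6, against 10.4% of all promoters. The exceptions on both counts were the promoter of Clec4a2 and the upstream one of Clec4a3 (chr6:122952265-122952564). CAGAC, a motif of SMAD proteins, was in 3 of 8, against 49.6% of all promoters. TTNCNNAA, a loose C/EBP motif, was in 4 of 8 (40.7% of all), TGANTCA, an AP-1 motif, in 2 of 8 (7.81%), and the core of the interferon-stimulated response element in 2 of 8 (3.44%). GAGGAA was picked after the sequences were seen, and promoters of related genes share sequence, so these counts describe the letters and test nothing. The motif stood on both sides of the cluster, in promoters of members that were higher in KO and of members that were lower.

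On GRCm38 (GENCODE M21), the 7 Clec4 members lie within 368 kb of chromosome 6 and Clec12a lies 6.05 Mb further on. In order along the chromosome they are Clec4a1 (chr6:122921848-122934619), Clec4a3 (chr6:122952515-122969875), Clec4b1 (chr6:123049962-123071555), Clec4a2 (chr6:123106428-123143999), Clec4n (chr6:123229843-123247021), Clec4d (chr6:123262111-123275265) and Clec4e (chr6:123281789-123289870). Clec12a is at chr6:129342691-129365303. All 8 are protein-coding genes, and Clec4e alone is on the minus strand.

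To compare genes with each other, mean CPM were divided by the length of the longest transcript in kb. On that scale Clec4a3 (126 CPM per kb), Clec4a1 (124), Clec12a (115) and Clec4n (103) were the highest members in WT, followed by Clec4a2 (52.0), Clec4d (38.8), Clec4e (28.3) and Clec4b1 (24.3). In KO the order was Clec4a1 (168 CPM per kb), Clec4a3 (146), Clec12a (98.7), Clec4n (80.8), Clec4a2 (63.1), Clec4b1 (48.9), Clec4d (28.0) and Clec4e (26.7). Within WT the first 4 did not differ beyond their spread, since the SD over 4 libraries was between 22.1 and 62.4 CPM per kb for these genes. Clec4b1 was the lowest of the 8 in WT and stood above Clec4d and Clec4e in KO. The length matters for Clec12a, which fell to 67.5 CPM per kb in WT and 57.7 in KO when all its exons (5528 bases) replaced its longest transcript (3233 bases).

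Over all 8 libraries, no member passed the test between genotypes. Among the activating receptors, Clec4n, which encodes dectin-2, a receptor for fungal mannans, read 51.2, 87.0, 218 and 220.0 CPM in WT 1 to 4, against 61.1, 121, 140.2 and 132 CPM in KO 1 to 4. The libraries WT 3 and WT 4 were the highest of all, while WT 1 was the lowest. Its neighbour Clec4d, which encodes MCL, was at 26.1, 37.8, 71.3 and 70.4 CPM in WT and at 20.7, 34.7, 47.2 and 45.6 CPM in KO. Clec4e, which encodes Mincle, a receptor for mycobacterial cord factor, was at 69.1, 90.9, 191 and 192 CPM in WT and at 74.4, 145, 153 and 141 CPM in KO. For these 3 genes the KO libraries lay inside the range set by the WT libraries, except KO 1 for Clec4d, which was the lowest of the 8.

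The genes of the DCIR side of the cluster had another pattern. Clec4b1, which encodes DCAR, an activating receptor that pairs with Fcer1g and recognises mycobacterial glycolipids, was at 14.3, 13.4, 21.7 and 23.4 CPM in WT and at 19.2, 43.1, 43.7 and 40.3 CPM in KO. KO 2, KO 3 and KO 4 were all above every WT library, and KO 1 fell between WT 1 and WT 3. The mean was 18.2 ± 5.09 CPM in WT and 36.5 ± 11.7 CPM in KO (SD, n = 4 each). Clec4a1, a DCIR family gene, was at 129, 164, 234 and 243 CPM in WT and at 148, 303, 297 and 297 CPM in KO, again with KO 1 inside the WT range. Clec4a2, which encodes the inhibitory receptor DCIR with its ITIM, was at 93.9, 98.5, 155 and 168 CPM in WT and at 85.5, 187, 175 and 178 CPM in KO. Clec4a3, a close relative, was at 119.8, 126, 202 and 206 CPM in WT and at 113, 208, 221 and 216 CPM in KO. In both, KO 1 was the lowest library of the 8 and KO 2 to 4 were the highest 3. Clec12a, an inhibitory receptor for uric acid crystals, was at 338, 289, 433 and 432 CPM in WT and at 179, 387, 353 and 358 CPM in KO. Here KO 1 was the lowest library of all, and WT 3 and WT 4 were the highest.

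**Figure D1:**
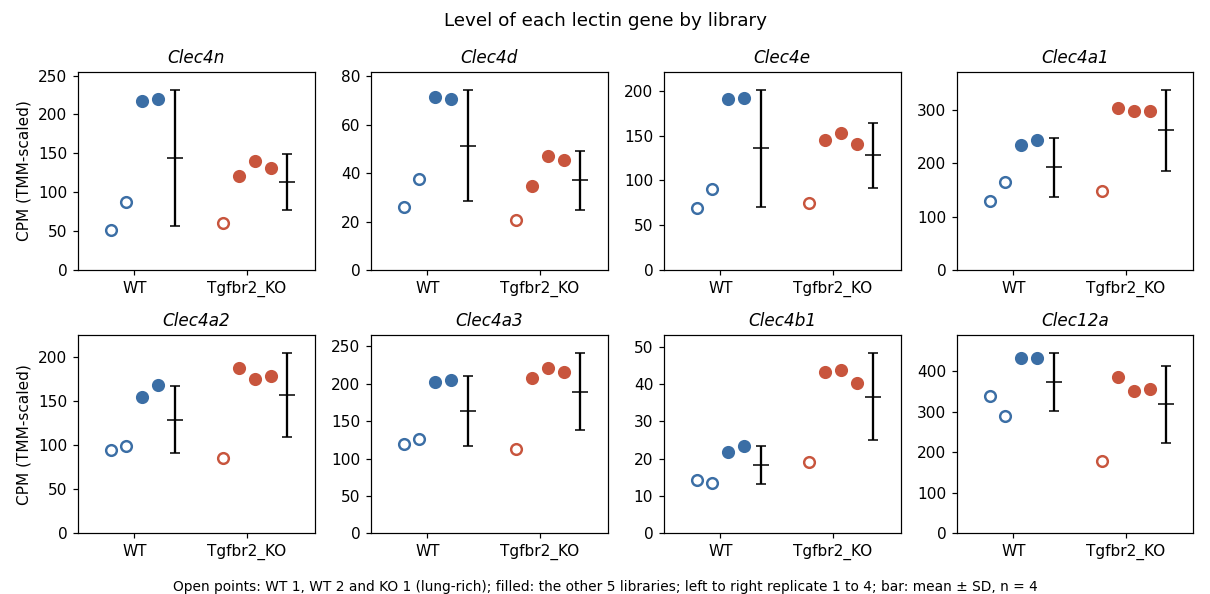
TMM-scaled CPM (vertical axis) of the 8 measured members in each of the 4 WT and 4 KO libraries, with lung-rich libraries marked. The lung-rich libraries WT 1, WT 2 and KO 1 sit below the other libraries of their genotype for every member, and the genotypes overlap in each panel.

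In the edgeR quasi-likelihood test with group only, 0 of 8 members passed a Benjamini-Hochberg adjusted p of 0.05, against 0.298% of 12750 genes tested (38 genes). Clec4b1 alone (1 of 8) had an unadjusted p below 0.05 in edgeR, and DESeq2 also called 0 of 8 (4.13% of all genes). No member separated the genotypes in CPM, against 6.9% of all genes. On the log2 scale Clec4b1 was 1.00 higher in KO (SE 0.31, edgeR adjusted p = 0.270; 95% interval 0.28 to 1.72). For Clec4a1 the value was 0.44 (SE 0.29, interval -0.24 to 1.12), and for Clec4n it was -0.34 (SE 0.51, interval -1.54 to 0.85). Clec4d stood at -0.47 (SE 0.40), Clec4a2 at 0.28 (SE 0.30), Clec12a at -0.23 (SE 0.26), Clec4a3 at 0.21 (SE 0.28) and Clec4e at -0.08 (SE 0.39). Without KO 1, Clec4b1 was called at 1.21 (edgeR adjusted p = 0.0226); without any other single library no member was. The median over the 8 members was 0.06, beside -0.01 over all genes tested. In bulk RNA, fewer cells of a type and less RNA per cell cannot be told apart.

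Much of the spread within a genotype followed the lung-rich libraries. Each of the 8 members was lower in every lung-rich library than in every other library of its genotype, a pattern that 30% of all tested genes shared. The size of the difference varied among members. In WT, the lung-rich mean was 31.6% of that of WT 3 and WT 4 for Clec4n, 41.8% for Clec4e and 45.1% for Clec4d. It was 59.5% to 61.4% for the 4 genes of the DCIR side and 72.5% for Clec12a. In KO, the single lung-rich library stood at 45.3% to 52.4% of the mean of KO 2 to 4 for all 8 members. Thus the members spread over a wider range in WT than in KO, and the percentages were lowest for the dectin-2 group in WT.

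Summed markers of some other cell types that express such receptors were highest in WT 3 and WT 4. The sum of 11 alveolar macrophage markers was 579 and 589 CPM in WT 3 and WT 4, and 157 to 221 CPM in the other 6 libraries. Chil3 alone accounted for 348 and 347 CPM of that sum in WT 3 and WT 4, against 15.8 to 30.04 CPM elsewhere. The 8 classical monocyte markers summed to 1340 and 1355 CPM in WT 3 and WT 4. Their sum was 553 and 709 CPM in WT 2 and WT 1 and 484 to 852 CPM in KO. Ccr2 alone was at 802 and 808 CPM in WT 3 and WT 4, and Chil3 is in this list too. In the edgeR fit of the 5 libraries that were not lung-rich, 2 of the 8 were called lower in KO and 1 (Ly6c2) higher. Of the alveolar list, 5 of 9 tested were called lower and 2 (Marco and Fabp4) higher. Of all genes, 18.7% were called lower in that fit and 19.7% higher. Neutrophil markers (10 genes) summed to 215 and 221 CPM in WT 3 and WT 4 and to 111 to 159 CPM elsewhere, with Retnlg at 1.58 to 6.15 CPM. Csf3r alone was at 135 and 142 CPM of that sum in WT 3 and WT 4, and at 60.6 to 119 CPM elsewhere. No gene of these lists was at 0 in all libraries. WT 3 and WT 4 were thus high in these sums and in Clec4n, Clec4d and Clec4e. The part of these cells in the results was not tested. The 10 dendritic cell markers summed to 126 and 128 CPM in WT 3 and WT 4, to 153 and 167 CPM in WT 2 and WT 1 and to 156 to 188 CPM in KO. Lymphocyte markers (10 genes) summed to 43.0 to 55.9 CPM in WT and to 63.6 to 85.3 CPM in KO, above every WT library. Shares of the genes of the DCIR side, given below, were also above every WT library in KO. The 6 non-classical monocyte markers summed to 1046 and 1028 CPM in WT 3 and WT 4 and to 1269.6 to 1351 CPM in KO 2 to 4. Their sum was highest in the lung-rich libraries, at 1722 to 2221 CPM. Ace alone was at 562 to 1096 CPM in the lung-rich libraries and at 109 to 228 CPM elsewhere. Nr4a1 alone was at 744 and 729 CPM in WT 3 and WT 4 and at 890 to 926 CPM in KO 2 to 4. The part of these cells was not tested either.

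Within the 5 libraries that were not lung-rich, the members split by their place in the cluster. All 8 separated WT 3 and WT 4 from KO 2, KO 3 and KO 4, with 4 above and 4 below. Among all genes 59.1% separated in this way, 29% above and 30.2% below. In the edgeR fit of these 5 libraries alone, 3 members were higher in KO and 4 lower. The background is high here, since 38.5% of 12624 genes were called, 19.7% higher and 18.7% lower. Clec4b1 rose by 0.90 on the log2 scale (SE 0.07, edgeR adjusted p = 2.58e-09). Clec4a1 rose by 0.33 (SE 0.03, edgeR adjusted p = 1.48e-07) and Clec4a2 by 0.16 (SE 0.04, edgeR adjusted p = 0.00579). Clec4a3 did not pass, at 0.08 (SE 0.04, edgeR adjusted p = 0.0973). On the other side, Clec4n fell by 0.74 (SE 0.05, edgeR adjusted p = 9.52e-08), Clec4d fell by 0.74 (SE 0.14, edgeR adjusted p = 0.0177) and Clec4e fell by 0.39 (SE 0.04, edgeR adjusted p = 1.15e-07). Clec12a fell by 0.24 (SE 0.04, edgeR adjusted p = 2.77e-05). The median of the members was -0.08, beside 0.00 for all genes. WT 3 and WT 4 lay closer together than the other WT pair, since their counts differed by 1.86 times what counting noise gives (median chi-square over genes) and those of WT 1 and WT 2 by 4.55 times, so the small standard errors rest on libraries that differed little.

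**Figure D2:**
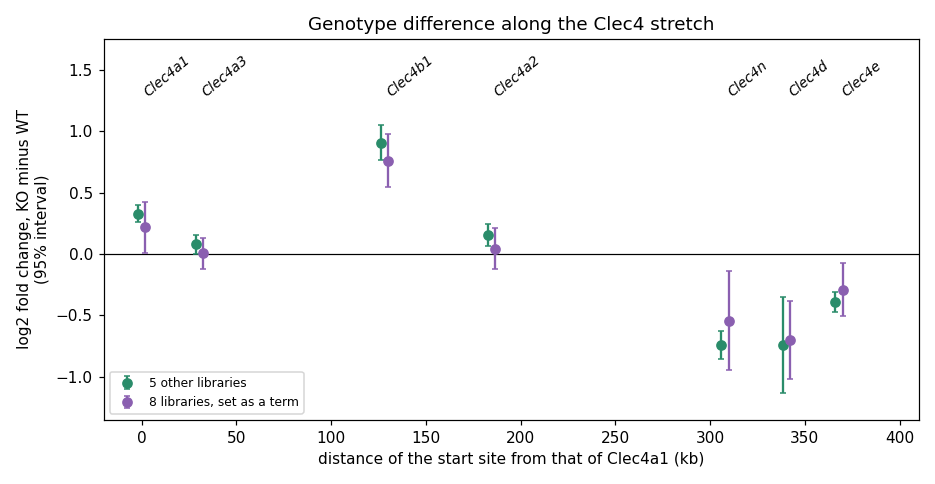
Log2 fold change of KO against WT (vertical axis, with 95% intervals) of the 7 Clec4 members against the distance of each gene from Clec4a1 in kb (horizontal axis), for the 5 libraries that were not lung-rich and for 8 libraries with the library set as a term. The 4 genes from Clec4a1 to Clec4a2 lie at or above 0, and Clec4n, Clec4d and Clec4e lie below 0; with the set as a term, the signs of Clec4a3, Clec4a2 and Clec4e turn under some alternatives.

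The lung-rich set holds only 1 KO library, KO 1, so its fit has no KO replicate and assumes that KO 1 varies as WT 1 and WT 2 do. Under that assumption Clec12a was called, at -0.88 on the log2 scale (SE 0.15, edgeR adjusted p = 0.0265), which makes 1 of 8 members called against 5.11% of 14011 genes called and 1.95% called lower. Clec4b1 was 0.41 higher (SE 0.16, edgeR adjusted p = 0.185) and Clec4d stood at -0.70 (SE 0.25, edgeR adjusted p = 0.182). The values of Clec4n (-0.25), Clec4e (-0.17), Clec4a1 (-0.05), Clec4a2 (-0.24) and Clec4a3 (-0.19) did not pass. The median of the members was -0.21, beside 0.00 for all genes and -0.67 for the 13 interstitial macrophage markers. Per 1000 counts of those markers, Clec12a was at 16.4 in KO 1, between WT 1 (20.2) and WT 2 (15.4). KO 1 also held more lung RNA than WT 1 or WT 2, with an epithelial marker sum of 5757 CPM against 3691 and 3215 CPM, and the part of this difference in the values was not tested.

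With the library set as a term in the fit of all 8 libraries, 3 of 8 members passed, 1 higher and 2 lower, against 16.5% of 12750 genes, 8.59% higher and 7.89% lower. Clec4b1 rose by 0.76 (SE 0.09, edgeR adjusted p = 0.00189), Clec4d fell by 0.70 (SE 0.14, edgeR adjusted p = 0.0131) and Clec12a fell by 0.44 (SE 0.12, edgeR adjusted p = 0.0372). Clec4n, at -0.54 (SE 0.17, edgeR adjusted p = 0.0729), and Clec4e, at -0.29 (SE 0.09, edgeR adjusted p = 0.0698), did not pass. Neither did Clec4a1, at 0.22 (SE 0.09, edgeR adjusted p = 0.149), Clec4a2, at 0.04 (SE 0.07), or Clec4a3, at 0.01 (SE 0.06). Without WT 3 or without WT 4, only Clec4b1 of the 8 was still called, and 5 members were called without WT 1 and 6 without KO 1. The call of Clec4d had an edgeR adjusted p of up to 0.0573 with a library left out, and that of Clec12a, which was also lost without WT 2, KO 3 or KO 4, of up to 0.0857. Clec4b1 was called in 18 of the 20 alternatives tried for this fit, with values between 0.65 and 1.21. Clec4a3 changed sign in 10 of the 20, Clec4a2 in 4, Clec4e in 2 and Clec12a in 1.

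**Figure D3:**
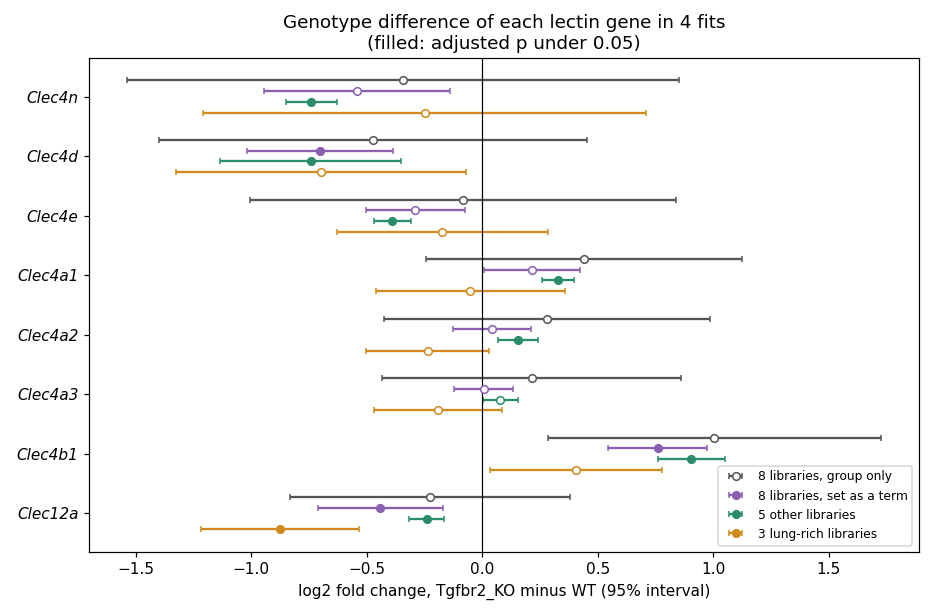
Log2 fold change of KO against WT with 95% intervals for each member in 4 fits: 8 libraries with group only, 8 libraries with the library set as a term, the 5 other libraries, and the 3 lung-rich libraries. Intervals are widest with group only, and Clec4b1 lies above 0 in all 4 fits, from 0.41 to 1.00.

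The size of the genotype difference itself was compared between the sets with an interaction term, taken as lung-rich minus other, with a single library (KO 1) in the lung-rich KO arm. It passed for 3 of 8 members, against 18.9% of 12750 genes, and was negative in all 3, as it was in 10.1% of all genes. Clec12a had a difference of -0.57 (SE 0.11, edgeR adjusted p = 0.00639), Clec4b1 of -0.43 (SE 0.13, edgeR adjusted p = 0.0399) and Clec4a2 of -0.33 (SE 0.09, edgeR adjusted p = 0.0258). It did not pass for Clec4a3 (-0.21), Clec4a1 (-0.31), Clec4n (0.55), Clec4e (0.28) or Clec4d (0.10). Without WT 1 the call of Clec4b1 was lost, and without WT 3 Clec12a alone was called. Without WT 2 the count was 5. The term rests on KO 1 alone, and its sign depends on scaling: relative to macrophage marker counts the differences of Clec4b1 and Clec4a2 were 0.06 and 0.17, while the median of all genes moved from 0.03 to 0.52.

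The balance between members can be read without any scaling by library, as the percentage that each holds of the counts summed over the 8 members. Clec4b1 held 1.70%, 1.48%, 1.42% and 1.51% of these counts in WT 1 to 4 and 2.74%, 3.02%, 3.06% and 2.86% in KO 1 to 4. Every KO library, KO 1 included, was above every WT library. Clec4a1 held 15.3%, 18.1%, 15.3% and 15.6% in WT and 21.2%, 21.2%, 20.8% and 21.1% in KO, with no overlap either. Clec4a2 held 10.2% to 11.2% in WT and 12.2% to 13.1% in KO, and Clec4a3 held 13.2% to 14.2% and 14.5% to 16.1%. Clec12a held 40.2%, 31.9%, 28.4% and 27.8% in WT and 25.5%, 27.1%, 24.7% and 25.4% in KO, below every WT library. The dectin-2 group overlapped. Clec4n held 6.08%, 9.59%, 14.3% and 14.1% in WT and 8.47% to 9.81% in KO, Clec4d 3.10% to 4.67% and 2.43% to 3.30%, and Clec4e 8.21% to 12.5% and 9.98% to 10.7%. In all, 4 members had a higher share in every KO library and 1 a lower one. Set against the same sum, 4% of all tested genes separated the genotypes, 2.24% with KO above and 1.76% with KO below. Shares of one sum are tied to each other, so that a rise of some is a fall of others, and no test was made of them.

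**Figure D4:**
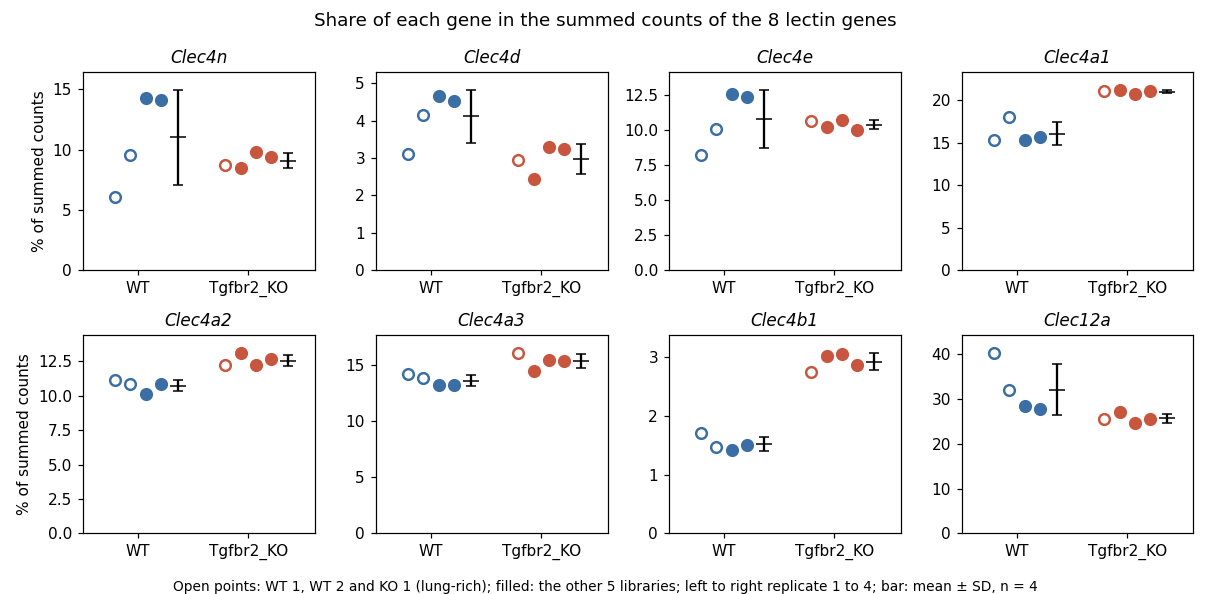
Percentage of the counts summed over the 8 measured members (vertical axis) that each member holds in each WT and KO library. Clec4b1, Clec4a1, Clec4a2 and Clec4a3 hold a larger share in all 4 KO libraries than in any WT library, and Clec12a holds a smaller one.

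Counts were also set against those of the 13 interstitial macrophage markers, a scaling chosen after the data were seen. Clec4b1 had 0.855, 0.714, 0.790 and 0.834 counts per 1000 marker counts in WT and 1.76, 1.80, 1.80 and 1.67 in KO. Clec4a1 had 7.72, 8.73, 8.51 and 8.66 in WT and 13.6, 12.7, 12.2 and 12.3 in KO. The lung-rich libraries no longer stood apart for these genes. Clec4a2 and Clec4a3 also separated the genotypes, which made 4 of 8 members with every KO library above every WT library, against 5.49% of all genes. In the edgeR fit scaled in this way 0 of 8 members passed (0.259% of all genes), and Clec4b1 had the smallest adjusted p, at 1.14 (SE 0.19, edgeR adjusted p = 0.0693). This scaling moved the median of all genes from -0.01 to 0.26, and the median of the members was 0.26 as well. Apoe, the most abundant of these markers, was at 4135 to 9476 CPM in WT and 2464 to 6137 CPM in KO. Scaled to Csf1r, Cd68 or Adgre1 alone, the median of all genes was -0.01, 0.02 and -0.01. In the libraries that were not lung-rich, mean CPM in KO were 1.06 times those in WT for Clec4a3 and 1.11 times for Clec4a2. The same ratio was 1.14 for Csf1r, 1.09 for Cd68 and 1.19 for Adgre1. The separation of Clec4a3 and Clec4a2 therefore depends on the markers chosen.

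Some reads cannot be assigned to one gene of this family. Of the 31-base stretches of Clec4b1 transcripts, 19.0% also occurred in transcripts of other genes, 18.3% in those of Clec4a2. For Clec4a2 the share was 10.9%, the largest part of it with Clec4a4, and its estimated counts were not whole numbers in all 8 libraries. The estimated counts of Clec4b1 were not whole in 1 library. How many reads the shared stretches leave uncertain between Clec4b1 and Clec4a2 was not measured. The other members shared at most 2.19% of their stretches with other genes, and Clec4a1 and Clec4d shared none. Clec4b1 and Clec4a2 were both higher in KO 2 to 4 than in any WT library.

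Among the partners of these receptors, the shared adaptor Fcer1g was at 362, 414, 566 and 622 CPM in WT and 306, 635, 633 and 623 CPM in KO. Syk, the kinase it recruits, was at 340.1 to 627 CPM in WT and 338 to 630.1 CPM in KO. Ptpn6, the phosphatase SHP-1 that binds ITIMs, was at 145 to 231 CPM in WT and 130.5 to 229 CPM in KO. All 3 had the lowest level in lung-rich libraries, and none passed with group only or with the library set as a term. Card9, the adaptor downstream of Syk, was at 32.3, 32.8, 49.6 and 48.6 CPM in WT and 25.1, 44.1, 43.4 and 43.7 CPM in KO. It fell by 0.24 with the set as a term (SE 0.05, edgeR adjusted p = 0.0208), a call kept in 8 of 20 alternatives and lost without WT 3, WT 4, KO 3 or KO 4.

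Of 33 genes listed for signalling from these receptors, 0 passed with group only, and 2 rose and 11 fell with the set as a term, where 8.59% of all genes were called higher and 7.89% lower. The median log2 fold change of the list was -0.01 and -0.13 in these fits. In the 5 other libraries, 9 rose and 14 fell, where 19.7% of all genes were called higher and 18.7% lower. The same shares of all genes stand beside the lists that follow. The guanine nucleotide exchange factor Vav3 was the clearest of those that rose, at 35.9, 37.2, 40.8 and 40.9 CPM in WT and 45.3, 66.5, 60.3 and 68.6 CPM in KO. All 4 KO libraries were above all WT libraries, and the rise was 0.54 with the set as a term (SE 0.08, edgeR adjusted p = 0.00411). Of 13 genes for inhibitory phosphatases and regulators, 0 passed with group only, and 1 rose and 3 fell with the set as a term. The one that rose was Dok2, an adaptor that dampens tyrosine kinase signalling, by 0.88 (SE 0.16, edgeR adjusted p = 0.00988). Dok2 was at 56.0, 44.1, 62.3 and 70.4 CPM in WT and at 66.4, 158, 136 and 143 CPM in KO. The call of Dok2 was lost without WT 3 or WT 4 (edgeR adjusted p up to 0.0634).

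Cytokines and other genes induced through dectins were followed in a list of 21, of which 19 were tested over 8 libraries. With group only 0 passed, and with the set as a term 2 rose and 1 fell. The list's median was 0.48 and 0.46 in these fits, beside -0.01 and 0.03 for all genes. In the 5 other libraries 13 of 20 tested rose and 4 fell (19.7% and 18.7% of all genes), with a median of 0.64. In the 3 lung-rich libraries 0 rose and 4 fell, with a median of -0.19. Ccl2, a chemokine that draws monocytes, was at 336, 233, 227 and 244 CPM in WT and 468, 1216, 1124 and 1139.7 CPM in KO. It rose by 1.77 with the set as a term (SE 0.32, edgeR adjusted p = 0.0104). Its 4 KO libraries were above all WT libraries, and the call was lost without WT 3 or WT 4 (edgeR adjusted p up to 0.0653). The gene that fell with the set as a term was Il23a, at 1.12 to 1.52 CPM in WT and 0.496 to 0.825 CPM in KO, without overlap. In the 5 other libraries Il1b, Il1rn and Nos2 fell with it. The part of dectins in the values of this list was not tested.

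Other lectin genes of the same chromosome 6 clusters moved in both directions. Of 20 listed, 14 were tested; 0 passed with group only, and 2 rose and 3 fell with the set as a term. Olr1, the oxidised LDL receptor LOX-1, was at 17.8, 31.7, 92.3 and 89.5 CPM in WT and 8.76, 19.6, 19.6 and 17.0 CPM in KO. It fell by 2.03 with the set as a term (SE 0.21, edgeR adjusted p = 0.00115). WT 3 and WT 4 were high for this gene as they were for Clec4n, Clec4d and Clec4e, and the KO range overlapped with WT 1. Klrb1b, an inhibitory receptor for Clec2d, fell by 1.38 (SE 0.16, edgeR adjusted p = 0.00196), and Cd69, an early activation marker, fell by 0.93 (SE 0.08, edgeR adjusted p = 4.3e-04). Clec2i rose by 0.70 (SE 0.12, edgeR adjusted p = 0.00807), from 8.52 to 9.68 CPM in WT to 11.3 to 18.1 CPM in KO, a call lost without WT 3 or WT 4 (edgeR adjusted p up to 0.0595).

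Of 23 symbols listed for other myeloid lectins, 19 were tested. With group only 2 rose, and with the set as a term 9 rose and 2 fell. The 2 that fell were Clec5a and Lgals3, of which Lgals3 encodes a galectin and no C-type lectin. The pair called with group only was Cd209f and Cd209g, both of the DC-SIGN family. Cd209f was at 3.21 to 7.77 CPM in WT and at 62.9, 128, 132 and 125 CPM in KO (log2 fold change 4.35, SE 0.44, edgeR adjusted p = 0.0273). Cd209g was at 1.03 to 2.78 CPM in WT and at 22.7 to 49.9 CPM in KO. Both calls with group only were lost without any 1 library other than KO 1 (edgeR adjusted p up to 0.191), though the genotypes stayed apart. Clec10a, the galactose lectin MGL, was at 38.7, 44.5, 65.7 and 62.7 CPM in WT and 104, 242, 274 and 259 CPM in KO. It rose by 1.77 with the set as a term (SE 0.14, edgeR adjusted p = 4.3e-04) and had no overlap between genotypes. Lyz2, whose locus carries the Cre in KO donors, was at 7285 to 13193 CPM in WT and 3439.9 to 5611 CPM in KO.

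For 7 members, the genes whose CPM ran most like them over the 8 libraries were found among 8822 candidates with at least 10 CPM in a group. They were Mefv for Clec4d (r = 0.994) and Glrx for Clec4e (r = 0.998). For the DCIR side they were Batf3 for Clec4a1 (r = 0.998), mt-Co2 for Clec4a2 (r = 0.997), Clta for Clec4a3 (r = 0.997) and Morf4l1 for Clec4b1 (r = 0.995), with Retnla the second for Clec4b1 (r = 0.992). Clec12a ran most like Rasgef1b (r = 0.994). The 8 libraries fall into lung-rich and other ones, so these values describe a shared order of libraries and nothing more. Batf3 was at 9.11, 11.5, 18.4 and 18.4 CPM in WT and 10.4, 24.5, 22.7 and 23.8 CPM in KO, the same order of groups as Clec4a1.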

How the data were processed

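RNA of macrophages sorted from lung was read in 8 libraries, 4 per genotype, grouped by the labels' titles. The authors deposited 1 merged table of estimated counts, made with salmon per the file's name. GRCm38 and DESeq2 1.40.1 stand in the submitters' processing notes. For salmon's version, annotation, strand setting and filters, the sources used here give nothing. Rounded counts went into edgeR 4.0.16 (R 4.3.3), and into DESeq2 1.42.0 as an alternative. After filterByExpr (at least 10 counts, 15 in total), 12750 genes were scaled by TMM. CPM are TMM-scaled, and 3 counts were 0.0844 to 0.177 CPM. Genotypes were compared with the robust quasi-likelihood test across all genes tested, and called at a Benjamini-Hochberg adjusted p under 0.05. Intervals are at 95%, and the fits were tested on simulated data with known changes, the interaction included. The simulated libraries shared a mean profile and a dispersion. Apart from the changes put in, the library sets did not differ there, so the set difference seen here was not simulated.

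The members and lists were chosen with earlier results of these data known, and the library sets were defined from the data. The text names every member, Tgfbr2, Lyz2, the partners Fcer1g, Syk, Card9 and Ptpn6, marker genes, genes of a list with the smallest adjusted p with group only, and the genes most like a member, of which that for Clec4n is not reported here. Retnla and the genes of the scalings were named after their values were seen. Clec7a was not analysed here. WT and KO libraries share the numbers 1 to 4, and deviations of same-numbered libraries from their group means correlated at 0.87, -0.79, 0.69 and 0.75, so the numbers were not taken as pairs. Alternatives changed the scaling, the filter, the tool, the block, the libraries used and a left-out library. Scalings to macrophage markers were added after seeing the data.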

Additional observations from a re-analysis of the deposited data

Results flagged for a closer look

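KO 1 stood apart from KO 2 to 4 for 6 of the 8 members, by a gap to the next library whose share of the group's range was above Dixon's 95% critical value for 4 samples. Its levels were 74.4 CPM for Clec4e, 148 CPM for Clec4a1, 85.5 CPM for Clec4a2, 113 CPM for Clec4a3, 19.2 CPM for Clec4b1 and 179 CPM for Clec12a. Chance flags about 1 in 20 groups in this way, and the 6 flags share 1 library. The share of all genes that the rule flags was not counted, so 6 of 8 is no result about these members. KO 1 is the only lung-rich library of its genotype.

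An interaction term of genotype with library set passed the edgeR threshold for Clec4a2 (-0.33), Clec4b1 (-0.43) and Clec12a (-0.57, all lung-rich minus other on the log2 scale). Its lung-rich KO arm is KO 1 alone, assumed to vary like the other libraries, so a change between the sets is not established. The sign of the term turned for all 3 genes when counts were scaled to Csf1r, Cd68 or Adgre1. These scalings also raised the median of all genes, which then lay above the values of the 3 genes. The cause was not tested.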

How the results depend on the processing

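Clec4b1 kept its direction in all 21 alternatives of the group-only fit (0.41 to 1.21) and in all 20 of the fit with the library set. For the 0 members called with group only, the count was 3 with the set as a term, 7 when lung-rich libraries were left out and 1 when only those were used, and 0 to 1 with a library left out (1, Clec4b1, without KO 1). Over all genes that fit called 38 genes, against 527 with DESeq2, 81 by library size only, 860 without KO 1 and 0 without any other single library. The 3 members called with the set as a term became 5 with DESeq2, 1 with WT 3 and WT 4 summed, 0 with KO 4 left out as well, 1 scaled to Cd68 and 1 scaled to Adgre1, and 1 to 6 with a library left out (1 without WT 3 or WT 4, 5 without WT 1, 6 without KO 1). The 3 members of the interaction became 1 with DESeq2, 6 scaled to Cd68 and 7 scaled to Adgre1, and 1 to 5 with a library left out (1 without WT 3, 5 without WT 2).

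The replicate block, for numbers that were not taken as pairs, left 0 members and 0 genes with group only, and 0 members and 109 of 2101 genes with the set as a term; Clec4b1 then had an edgeR adjusted p of 0.0814.

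Signs turned in these cases, those of Clec12a with the set as a term and of the 3 called interactions among them. With group only, Clec4e was at 0.14 and Card9 at 0.10 scaled to macrophage markers, 0.21 and 0.17 when Cx3cr1 and the C1q genes were left out of these, and -0.30 to 0.13 and -0.16 to 0.10 with a library left out. In the 3 lung-rich libraries Clec4a1 was at -0.052, Clec4a2 at -0.24 and Clec4a3 at -0.19. With the set as a term, Clec4a3 was at -0.00890 with RLE size factors, -0.00106 without a filter, -0.00841 with DESeq2 and -0.056 to 0.077 with a library left out, and Clec4a2 at -0.058 to 0.15. With WT 3 and WT 4 summed, Clec4a2 and Clec4a3 were at -0.036 and -0.051, and at -0.042 and -0.059 with KO 4 left out as well. Scaled to macrophage markers, Clec4e was at 0.10 and Card9 at 0.14, and without Cx3cr1 and C1q Clec4e was at 0.17, Clec12a at 0.00743 and Card9 at 0.21. The interaction of Clec4d was at -0.12 to 0.41 with a library left out. Scaled to macrophage markers it was 0.19 for Clec4a1, 0.17 for Clec4a2, 0.29 for Clec4a3 and 0.059 for Clec4b1, and without Cx3cr1 and C1q 0.13, 0.10 and 0.23 for the first 3. Scaled to Csf1r, Cd68 and Adgre1 it was 0.36, 0.34 and 0.52 for Clec4a1, 0.35, 0.32 and 0.50 for Clec4a2, 0.47, 0.44 and 0.62 for Clec4a3, 0.24, 0.21 and 0.39 for Clec4b1, and 0.11, 0.065 and 0.25 for Clec12a. These 5 scalings moved the median of all genes to between 0.46 and 0.85, and each of these values lies below the median of its scaling. The cause of the other changes was not tested. The estimated counts cannot be divided further where genes share sequence, and 4 libraries per group limit the precision.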
